A study of Mus musculus with 18 samples.

Results

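CX3CR1 is the receptor for fractalkine (CX3CL1), a chemokine that endothelial cells and other stromal cells carry on their membrane or shed. The receptor is well known on patrolling (nonclassical) monocytes, on many tissue macrophages and on some dendritic, NK and T cells. CD11c, encoded by Itgax, is an integrin chain of dendritic cells and of many macrophages in atherosclerotic arteries. Mice with a GFP reporter in Cx3cr1 and a YFP reporter under Itgax control allow leukocytes of the artery wall to be sorted by both markers at once.

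The comparison described here is the main effect of the Cx3cr1 reporter. It sets the 10 libraries of reporter-positive cells against the 8 libraries of reporter-negative cells, by their labels, with the YFP reporter as a covariate. The positive side held 6 libraries of cells with GFP alone (GFP) and 4 libraries of cells with both reporters (double positive, DP). The negative side held 5 libraries of cells with YFP alone (YFP) and 3 of cells with neither (double negative, DN). These are all 18 libraries of the series. Every group came from Apoe-/- Cx3cr1GFP Cd11cYFP mice on the C57BL/6 background, male and female, 7 months old and fed a Western diet for 5 months, so hypercholesterolaemia and both reporters were shared by all groups and no library came from a lean or reporter-free animal. Live CD45+ cells were sorted from enzymatically digested aortas and carotid arteries. Whether the GFP allele was carried on 1 or both chromosomes was not given in the sources used here, nor whether libraries with different numbers came from different mice, so the p-values measure the spread between these libraries.

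The libraries held 289166 to 27742113 counts, and the lowest total was that of YFP replicate 6; the next lowest was 9790946. Between 13150 and 21972 genes had at least 1 count in a library. Of 23337 genes in the table, 17143 passed the filter on low counts and were tested. Levels are given below as CPM, counts scaled to a common library size with TMM factors, and differences as log2 fold changes of positive over negative libraries. In sorted bulk samples, fewer cells of a type and less RNA per cell cannot be told apart.

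Cx3cr1 itself (chr9:119901616-120069879, minus strand, GENCODE vM21 on mm10) did not separate the sides of the comparison. Its level was 0.427 CPM in the lowest, 114.0 CPM in the median and 165 CPM in the highest positive library, against 0.930, 60.4 and 142 CPM in the negative ones. The 6 GFP libraries lay at 80.9 to 165 CPM, and DP 1 and DP 2 at 92.7 and 118 CPM. The libraries labelled DP 4 and DP 5 had 9.43 and 0.427 CPM of Cx3cr1, below most negative libraries. Among negative libraries, YFP 1 and DN 1 had 0.930 and 4.09 CPM, whereas those labelled DN 3 and DN 6 had 142 and 134 CPM, between the lowest and the highest GFP library. YFP 3, YFP 4, YFP 5 and YFP 6 had 60.7, 60.0, 26.3 and 104 CPM of Cx3cr1. The log2 fold change of Cx3cr1 was 0.32 ± 0.73 (SE; adjusted p = 1, edgeR's quasi-likelihood test with Benjamini-Hochberg adjustment). It was 0.49 in GFP against DN and 0.17 in DP against YFP, and without DP replicate 2 it was -0.0013.

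Itgax (chr7:128129547-128150657, plus strand) was the second check on the labels, since the YFP status is the covariate. DP 1 and DP 2 had 456 and 311 CPM of Itgax, while DP 4 and DP 5 had 38.6 and 47.8 CPM, below all 6 GFP libraries (107 to 191 CPM). DN 3 and DN 6 had 332 and 297 CPM of Itgax, against 11.4 CPM in DN 1. The log2 fold change of Itgax between reporter-positive and reporter-negative libraries was -0.80 ± 0.56 (SE, adjusted p = 1). Ptprc, which encodes the CD45 protein used for the sort, was present in every library, at 461 to 1015 CPM in positive and 439 to 1248 CPM in negative ones. Thus 4 libraries had RNA levels of both reporter-driving genes that went against their labels: DP 4, DP 5, DN 3 and DN 6. They were kept under their labels. Values without them are given for named genes that turned direction and for list medians that moved, not for every result they enter. The sort read reporter protein and the counts read RNA.

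**Figure D1:**
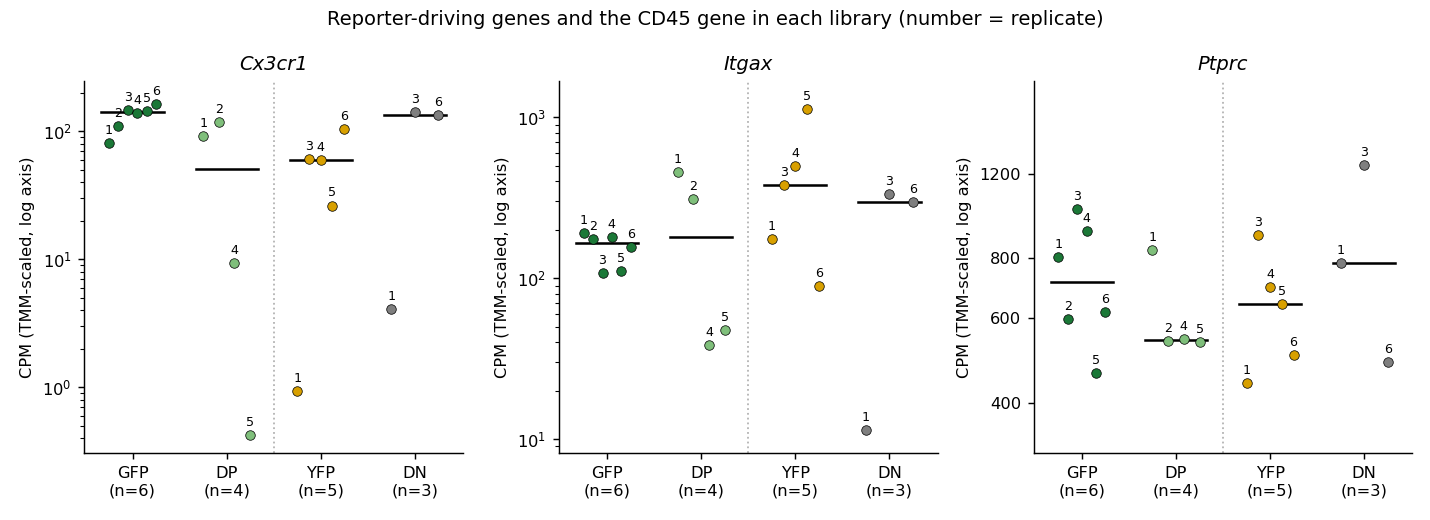
Levels of Cx3cr1, Itgax and Ptprc (CPM, TMM-scaled, log axes) in each library, by sorted subset, with GFP and DP (Cx3cr1-reporter positive) left of the dotted line and YFP and DN right of it; numbers are replicate numbers and bars are medians. For Cx3cr1, DP 4 and DP 5 sit at 9.43 and 0.427 CPM among the low libraries and DN 3 and DN 6 at 142 and 134 CPM among the high ones.

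Over all genes, no gene differed by the Cx3cr1 reporter at an adjusted p under 0.05, 0% of 17143 tested. edgeR gave an unadjusted p under 0.05 for 325 genes, 1.9% of those tested and below the 5% that the threshold would give by itself. Of these, 181 were higher (1.06%) and 144 lower (0.84%) in positive libraries. DESeq2 called 0 genes as well, with 439 at an unadjusted p under 0.05, and limma voom with sample weights called 0, with 501. The smallest adjusted p was 0.756, for Tpsab1. The spread between libraries of one subset was large, with a common dispersion of 0.888, and the median log2 fold change of all genes was 0.03. No gene had all 10 positive libraries above, or all 10 below, all 8 negative ones.

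The reporter difference was then taken on each side of the YFP split. Among YFP-negative cells, GFP against DN, no gene was called (0%) and 231 had an unadjusted p under 0.05 (1.35%). Among YFP-positive cells, DP against YFP, edgeR called none (0%), with 1154 at an unadjusted p under 0.05 (6.73%); DESeq2 called 133 there, 87 higher and 46 lower in DP. Whether the difference itself changed with YFP status was tested as the interaction, with no gene called (0%) and 565 at an unadjusted p under 0.05 (3.3%); DESeq2 called 12 and limma voom 1. Of all genes, 8180 (47.7%) had the same direction on both sides.

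Only 7 genes (0.0408% of those tested) had an unadjusted p under 0.05 and the same direction on both sides, and none did at an adjusted p under 0.05. Tpsab1, Emr4, Ly6i and Cyp2ab1 were higher in positive libraries, and Cd226, Itgae and 2010001M09Rik were lower. With the replicate number as a block there were 15 such genes, of which Emr4, Ly6i and Itgae are among these 7; leaving out 1 library at a time gave between 3 and 12, and leaving out DP 4, DP 5, DN 3 and DN 6 gave 37, with Cd226 the one of the 7 among them. An unadjusted p under 0.05 was reached by 1.35% of genes in GFP against DN and by 6.73% in DP against YFP. Some genes would therefore meet the rule even if the sides were unrelated, and the count of 7 was not tested against that. Since none of these genes passed the adjusted test, they are given as values.

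**Figure D2:**
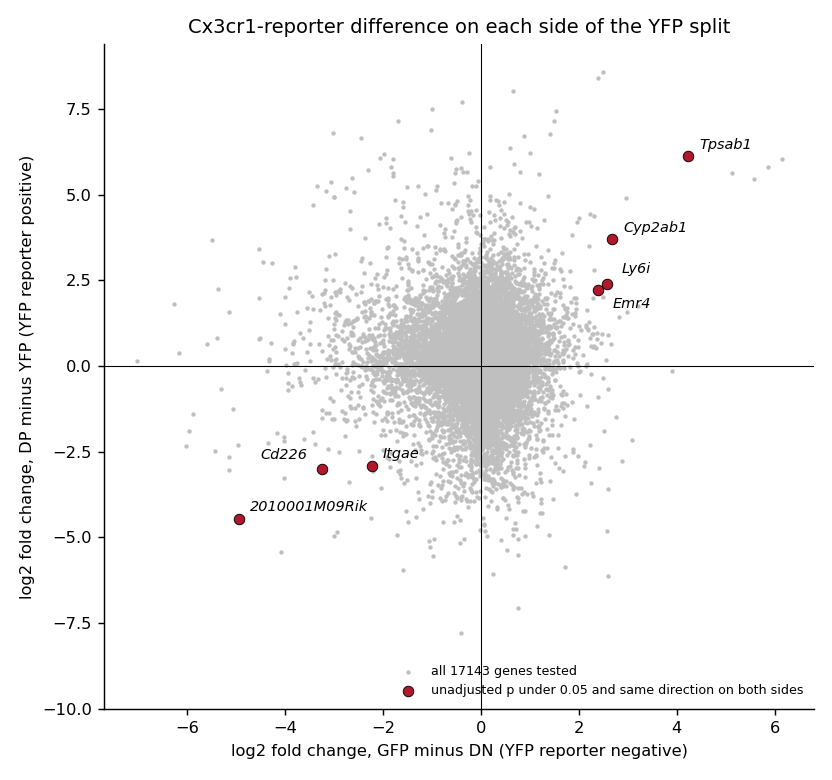
Log2 fold change of GFP over DN (x axis, YFP-negative cells) against DP over YFP (y axis, YFP-positive cells) for the 17143 genes tested, each a grey point. The 7 red points are the genes with an unadjusted p under 0.05 and the same direction on both sides, 4 in the upper right and 3 in the lower left; the other genes scatter around 0 on both axes.

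The genes higher on both sides included a mast cell protease and surface molecules of myeloid cells. Emr4 (Adgre4 in the annotation; chr17:55749984-55853662, plus strand) encodes an adhesion G protein-coupled receptor of monocytes and macrophages. It had 11.8, 51.9 and 174 CPM in the lowest, median and highest positive library, against 2.09, 5.86 and 59.7 CPM in the negative ones. All 10 positive libraries were above the negative median, and the high negative library was YFP 6, the shallowest. Emr4 had an estimate of 2.30 ± 0.66 on the log2 scale (SE, adjusted p = 1), with 2.39 in GFP against DN and 2.22 in DP against YFP. It held on both sides in 14 of 18 fits that left out a library.

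Ly6i (chr15:74979534-74983430, minus strand), a GPI-anchored member of the Ly6 family, had 1.22, 7.24 and 16.5 CPM in the lowest, median and highest positive library, against 0.333, 1.19 and 8.96 CPM in negative ones. Again every positive library exceeded the negative median, and YFP 6 was the highest negative library. For Ly6i the fit gave 2.48 ± 0.73 on the log2 scale (SE, adjusted p = 1), 2.57 in GFP against DN and 2.39 in DP against YFP. Ly6 genes lie in a cluster of similar copies, so reads could be split among them in counting.

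Tpsab1 (chr17:25343245-25345562, minus strand), a tryptase of mast cell granules, had 0.416, 4.44 and 136 CPM in the lowest, median and highest positive library, against 0, 0.316 and 0.881 CPM in negative ones. The 136 CPM came from DP 5, while DP 1, DP 2 and DP 4 had 0.416, 1.06 and 0.623 CPM, within or just above the negative range. In GFP 2 to GFP 6 the level was 3.46 to 10.3 CPM, above every negative library. Its log2 fold change was 5.18 ± 1.06 (SE, adjusted p = 0.756), higher in 10 of 10 positive libraries than the negative median. Tpsab1 and Tpsb2 are near-identical neighbours, so how counting divided reads between them is uncertain. Cyp2ab1 (chr16:20308387-20325404, minus strand), a cytochrome P450, had a median of 3.46 CPM in positive libraries (0.333 to 73.2) and 0.948 CPM in negative ones (0.0997 to 5.97). DP 5 held its highest value too, and the gene kept its place on both sides in 4 of 18 fits that left out a library.

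The genes lower on both sides are known from lymphocytes, and Itgae from dendritic cells as well. Cd226 (chr18:89176967-89272229, plus strand) encodes an activating receptor of T and NK cells. It had 0, 0.629 and 7.02 CPM in the lowest, median and highest positive library, against 0, 15.3 and 31.3 CPM in the negative ones. YFP 1, YFP 3, YFP 4, YFP 5 and DN 1 lay at 13.4 to 31.3 CPM and above every positive library, whereas YFP 6, DN 3 and DN 6 lay at 0, 1.61 and 0.514 CPM. The T cell list (mean log2(CPM + 1) of its members) was at 3.28 in YFP 1 and 6.99 in DN 1. In YFP 3, YFP 4 and YFP 5 it was at 1.38, 1.20 and 0.81. Which cells carried Cd226 was not tested. The log2 fold change of Cd226 was -3.12 ± 0.84 (SE, adjusted p = 1), with -3.24 in GFP against DN and -3.01 in DP against YFP. Without DP 4, DP 5, DN 3, DN 6 and YFP 6, chosen after the data were seen, Cd226 fell by 5.14 on the log2 scale and was the one gene called (adjusted p = 0.00721).

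Itgae (chr11:73090583-73147446, plus strand) encodes CD103, an integrin chain of epithelium-associated T cells and of conventional dendritic cells of type 1. It had 0.163, 2.76 and 8.06 CPM in the lowest, median and highest positive library, against 2.05, 15.2 and 66.7 CPM in negative ones. YFP 1, YFP 3, YFP 5 and DN 1 were high, at 24.4 to 66.7 CPM, and the other 4 negative libraries overlapped the positive range. The log2 fold change of Itgae was -2.59 ± 0.79 (SE, adjusted p = 1). 2010001M09Rik, the table's name for Mzb1, a chaperone of B and plasma cells (chr18:35647267-35649367, minus strand), had 0 to 3.01 CPM in positive libraries, against 198 CPM in YFP 1, 41.7 CPM in DN 1 and 0 to 1.52 CPM in the other negative ones. Its median was 0.709 CPM in positive libraries and 0.419 CPM in negative ones. The fitted log2 fold change of -4.68 ± 1.34 (SE) for 2010001M09Rik thus has the opposite direction to the medians.

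**Figure D3:**
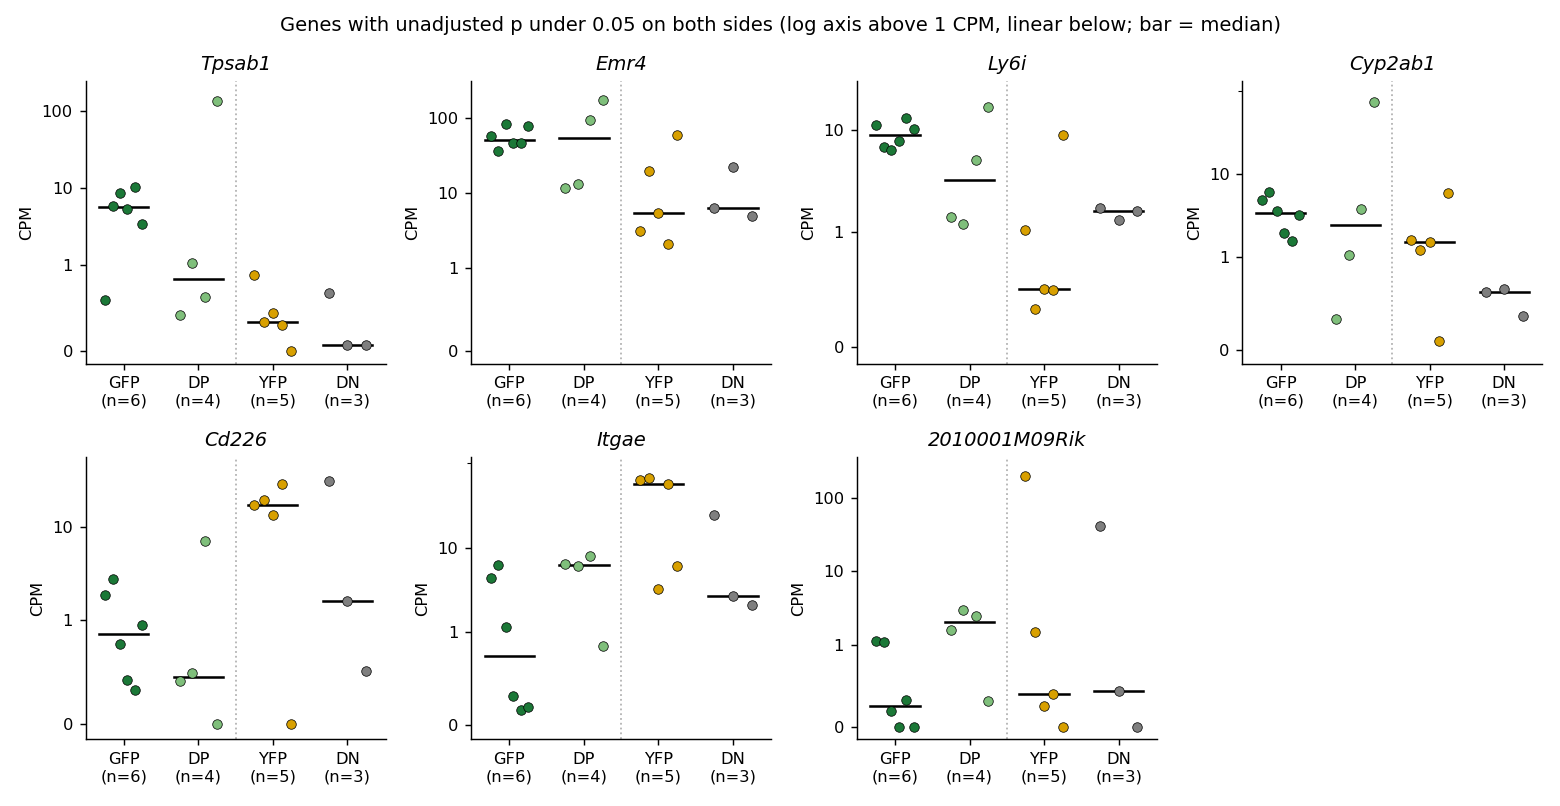
Levels (CPM, log axis above 1 CPM and linear below) of the 7 genes that held on both sides of the YFP split, in each library by subset, GFP and DP left of the dotted line and YFP and DN right of it; bars are medians. Emr4 and Ly6i were spread over all GFP libraries, DP 5 holds the highest Tpsab1 and Cyp2ab1 values, and YFP 1 and DN 1 hold the 2010001M09Rik values of 198 and 41.7 CPM.

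Other genes named for a small unadjusted p and a higher level in positive libraries follow. Thbs1, which encodes the matrix protein thrombospondin-1, had a median of 2964 CPM in positive libraries (342 to 8563) and of 629 CPM in negative ones (118 to 1490). Its log2 fold change was 2.04 ± 0.58 (SE, adjusted p = 1). GFP 1 to GFP 4, GFP 6, DP 4 and DP 5 exceeded all negative libraries in Thbs1, while DP 1 and DP 2 had 596 and 342 CPM. Chi3l3 (Chil3 in the annotation), a chitinase-like protein of myeloid cells with close paralogues, had a median of 386 CPM in positive and 93.3 CPM in negative libraries (log2 fold change 2.56 ± 0.81, SE, adjusted p = 1). Ceacam1, an adhesion receptor, had medians of 38.6 and 15.2 CPM in positive and negative libraries, and Epor, the erythropoietin receptor, 10.8 and 2.68 CPM. Chi3l3, Ceacam1 and Epor were above the negative median in 8 of 10 positive libraries, the exceptions being DP 1 and DP 2.

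Plac8, abundant in monocytes, had a median of 71.4 CPM in positive and 37.4 CPM in negative libraries, and 1850 CPM in DP 5. Elane and Prtn3, proteases of neutrophil precursors, were at 156 and 83.2 CPM in DP 4, against at most 0.231 CPM of Elane and 2.99 CPM of Prtn3 in negative libraries; in the other positive libraries Elane reached 2.23 CPM. Tpsb2, Cma1 and Cpa3, mast cell proteases, had 2634, 3536 and 2432 CPM in DP 5, and at most 61.0, 57.6 and 53.7 CPM in the other positive libraries. YFP 6 held the highest negative values of Tpsb2, Cma1 and Cpa3, 68.7, 119 and 74.6 CPM. DP 5 was the highest of all 18 libraries for 149 of the 181 genes with an unadjusted p under 0.05 and a higher level in positive libraries, and DP 4 for 15. Over all 17143 genes tested, DP 5 was the highest library for 2590 and DP 4 for 1294. Without DP 4, DP 5, DN 3 and DN 6 the log2 fold changes of Ceacam1, Chi3l3, Plac8, Tpsb2, Cma1 and Cpa3 were negative, from -0.35 for Ceacam1 to -4.71 for Cpa3.

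Single genes of the interferon, Cx3cr1-linked macrophage and resident macrophage lists had a higher level in most positive libraries. The interferon and Cx3cr1-linked lists as a whole did not share this, the latter with a median log2 fold change of 0.18. In the resident macrophage list 17 of 18 members were above 0, with a median of 0.75, but DP 1 and DP 2 were among its lowest libraries. The type I interferon list had 16 of 25 members above 0 and a median log2 fold change of 0.07, with 14 above 0 in GFP against DN and 12 in DP against YFP. Oas2, a sensor of double-stranded RNA, had 43.3, 75.5 and 151 CPM in the lowest, median and highest positive library, against 24.6, 32.8 and 82.0 CPM in negative ones. All 10 positive libraries lay above the negative median of Oas2 (log2 fold change 1.02 ± 0.37, SE, adjusted p = 1), 1.07 in GFP against DN and 0.97 in DP against YFP. P2ry12, a purinergic receptor known as a marker of microglia, had medians of 34.4 and 14.0 CPM in positive and negative libraries, with 9 of 10 positive libraries above the negative median (1.29 ± 0.58, SE, adjusted p = 1). Lyve1 and Timd4, markers of resident macrophages, had median levels of 82.0 and 14.6 CPM in positive libraries, against 41.6 and 7.39 CPM in negative ones. Lyve1 had 1099 CPM in DP 5, and 6.41 and 11.6 CPM in DP 1 and DP 2. The log2 fold change of Lyve1 turned to -1.69 without DP 4, DP 5, DN 3 and DN 6, to -1.07 within the libraries numbered 1 and 2 and to -0.14 with limma voom. That of Timd4 turned to -0.16 and -0.37 in the first and second of these fits.

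Genes with a lower level in positive libraries included products of lipid-laden macrophages. Cd5l, a secreted macrophage protein that protects from apoptosis, had 8.53, 18.8 and 95.2 CPM in the lowest, median and highest positive library, against 9.30, 97.2 and 343 CPM in negative ones. Ctsk, the lysosomal protease cathepsin K, had 24.1, 106 and 151 CPM in positive libraries, against 21.5, 422 and 1782 CPM in negative ones. In both genes all 10 positive libraries were below the negative median, and DN 1 was low, at 9.30 and 21.5 CPM. The log2 fold changes were -2.45 ± 0.65 for Cd5l and -2.18 ± 0.59 for Ctsk (SE, adjusted p = 1 for both).

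Mfge8, which bridges dying cells to phagocytes, Mmp12, the macrophage elastase, Lpl, lipoprotein lipase, and Atp6v0d2, a subunit of the macrophage proton pump, had the same arrangement. Mfge8 had a median of 115 CPM in positive libraries (62.1 to 316) and of 408 CPM in negative ones (55.5 to 2276). Mmp12 had a median of 782 CPM in positive libraries (168 to 1298) and of 1861 CPM in negative ones (4.58 to 8941). Lpl had a median of 444 CPM in positive libraries (274 to 1032) and of 1161 CPM in negative ones (17.6 to 6404). All 10 positive libraries lay below the negative median for Mfge8, Mmp12, Lpl and Atp6v0d2, the highest library was YFP 5 in each, and DN 1 was the lowest. The log2 fold change lay between -1.91 for Atp6v0d2 and -1.44 for Lpl, each with an adjusted p of 1. Within the libraries numbered 1 and 2 the direction was the opposite for Mmp12 (1.15), Lpl (1.08) and Atp6v0d2 (0.25). On the sides of the YFP split Lpl was at -2.37 in DP against YFP and -0.30 in GFP against DN, and the interaction was not called (unadjusted p = 0.0761, edgeR). Apoe, the gene deleted in these mice, still gave reads, at 1.81 to 57.0 CPM in positive and 7.42 to 208 CPM in negative libraries.

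Some genes of B cells and of antigen presentation also had lower levels. Cd22, an inhibitory receptor of B cells, had 1.39, 22.4 and 37.5 CPM in the lowest, median and highest positive library, against 1.20, 54.7 and 313 CPM in negative ones (log2 fold change -2.01 ± 0.63, SE, adjusted p = 1). H2-Ob, which tunes peptide loading on MHC class II, had medians of 12.0 and 19.3 CPM in positive and negative libraries (-2.05 ± 0.65, SE). It ranged from 0.427 to 26.7 CPM in positive and from 8.96 to 225 CPM in negative libraries. The highest DN and YFP libraries had 225 and 116 CPM of H2-Ob, against subset medians of 15.4 and 23.1 CPM. Cd79a, a chain of the B cell receptor, was at no more than 21.3 CPM in positive libraries, against 449 CPM in DN 1, 178 CPM in YFP 1 and at most 5.80 CPM in the other negative ones. Il23a, which encodes a subunit of the cytokine IL-23, had 0.427 to 8.41 CPM in positive libraries, all below the negative median of 10.8 CPM (log2 fold change -1.83 ± 0.60, SE, adjusted p = 1). Ccl11, an eosinophil-attracting chemokine, had medians of 0.780 and 6.85 CPM in positive and negative libraries, and Scd1, a desaturase of fatty acid synthesis, 9.22 and 33.2 CPM. Of the 144 genes with an unadjusted p under 0.05 and a lower level in positive libraries, YFP 5 was the highest library for 74, DN 1 for 34 and YFP 1 for 21. Over all 17143 genes tested, YFP 5 was the highest library for 3175, DN 1 for 1174 and YFP 1 for 1067.

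The pathway and cell type lists, 29 in all with 443 of 456 entries found in the table, held no called gene in the comparison over all libraries. They are described by the number of members on each side of 0 and by their median log2 fold change, beside 8955 of 17143 genes above 0 and a median of 0.03 for all genes. In the resident macrophage list 17 of 18 members were above 0, with a median of 0.75. The median was 0.83 in GFP against DN and 0.70 in DP against YFP. The level of this list, the mean log2(CPM + 1) of its members, was 10.44 in DP 5. DP 1, DP 2 and DP 4 were at 7.18, 7.47 and 8.37, within or below the YFP range of 7.31 to 9.22. GFP libraries were at 7.93 to 9.30, against 5.82 in DN 1 and 8.25 in DN 3 and DN 6. Its median log2 fold change kept its sign in 29 of 31 other fits, with a lowest value of -0.22. Classical monocyte genes had a median of 0.87, with 10 of 13 above 0, and nonclassical monocyte genes of 0.47, with 10 of 13 above 0. Genes of tissue dissociation and heat shock had 18 of 20 members above 0 and a median of 0.36; Fos had a median of 3652 CPM in positive and 2644 CPM in negative libraries. This median, with those of the fibroblast and of the erythroid and platelet lists, kept its sign in every fit of the main effect. Those of the other 26 lists did not. On the sides of the YFP split, GFP against DN and DP against YFP, the fibroblast median was -2.08 and 0.35. The erythroid and platelet median was 0.02 and -1.64, and that of dissociation and heat shock genes 0.40 and 0.24. The fractalkine axis (4 of 7 above 0, median 0.04) and the other Cx3cr1-linked macrophage genes (8 of 14, median 0.18) were near the median of all genes.

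Lists with medians below 0 included foamy or TREM2-high macrophage genes, with 1 of 16 members above 0 and a median of -0.74. On the YFP-negative side that list's median was -0.06, and on the YFP-positive side -1.31; within the libraries numbered 1 and 2 it was 1.12. MHC class II presentation had 1 of 12 members above 0 (median -0.35; 0.29 in GFP against DN and -0.94 in DP against YFP), and conventional dendritic cell 1 genes 2 of 13 (median -0.45; 0.12 in GFP against DN and -1.18 in DP against YFP). Lysosome genes had 3 of 20 above 0, with a median of -0.27; in GFP against DN 15 of 20 were above 0 (median 0.17), and in DP against YFP 3 of 20 (median -0.70). Whether these medians differed between the sides was not tested.

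**Figure D4:**
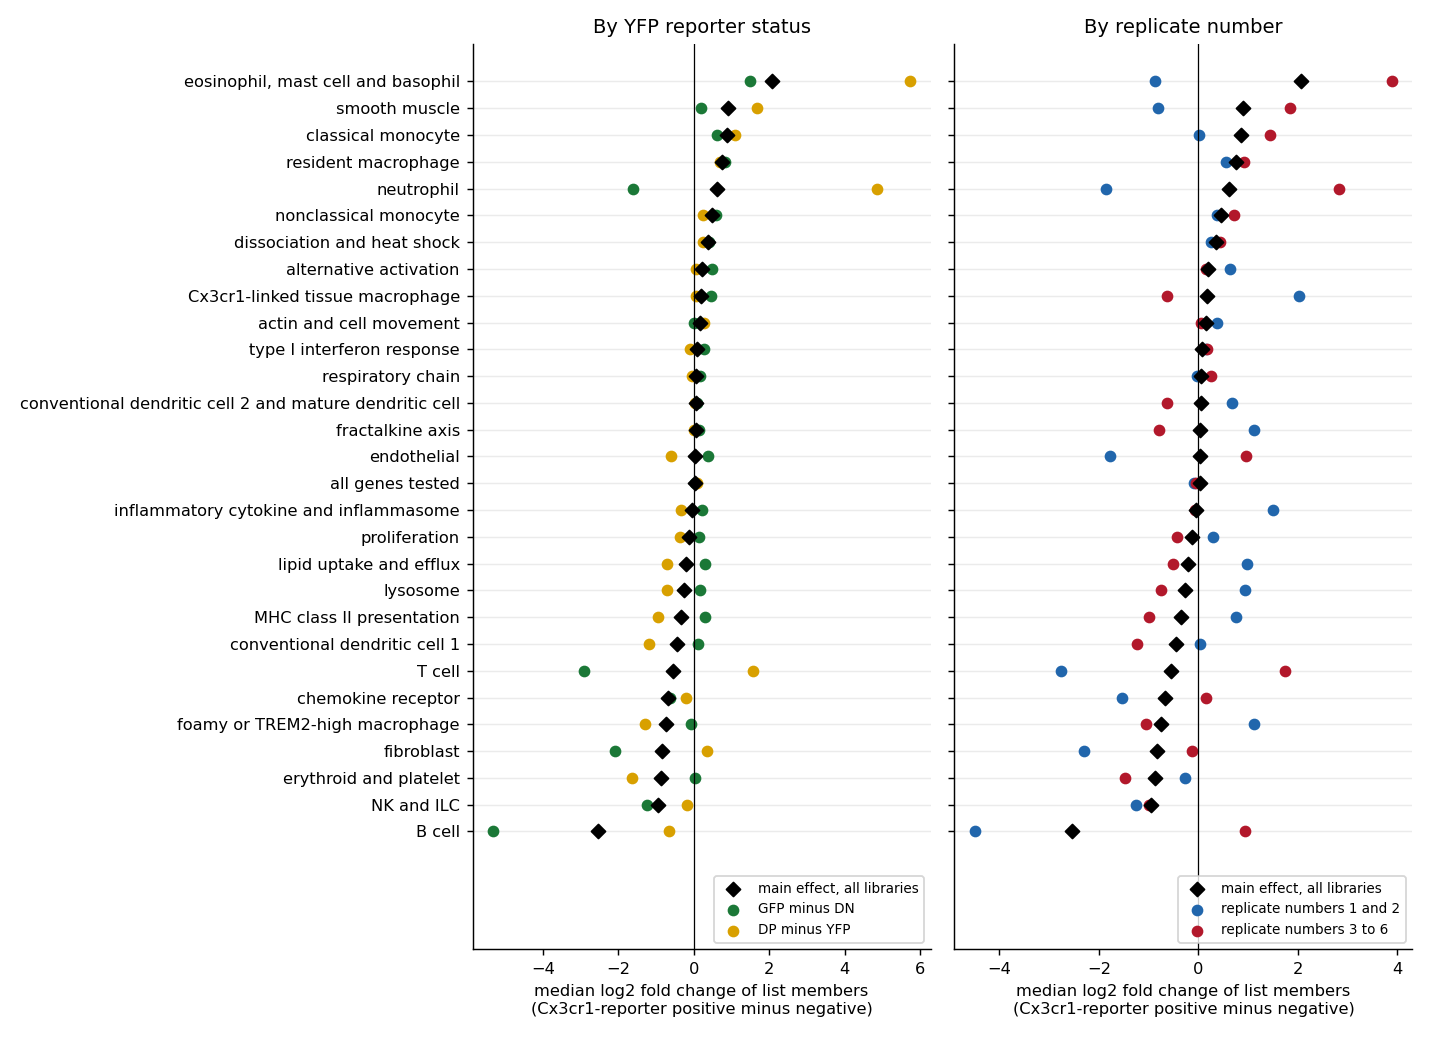
Median log2 fold change (x axis) of each gene list for the Cx3cr1 reporter over all libraries (black diamonds), by YFP status on the left (GFP over DN green, DP over YFP yellow) and by replicate number on the right (numbers 1 and 2 blue, 3 to 6 red). Resident macrophage medians lie at 0.75, 0.83 and 0.70 on the left, while the T cell list lies at -2.90 in GFP over DN and 1.57 in DP over YFP.

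Markers of other cells moved with single libraries. The level of a list is given here as the mean of log2(CPM + 1) over its members. The mast cell, eosinophil and basophil list was at 8.57 in DP 5, against 0.81 to 2.69 in the other positive libraries and 0.67 to 4.21 in negative ones. Neutrophil genes were at 8.36 in DP 5 and 5.98 in DP 4, with 1.93 to 4.48 in the other positive libraries and 2.45 to 6.03 in negative ones. The resident macrophage list was also highest in DP 5, at 10.44. T cell genes reached 4.84 in DP 4 and 4.57 in GFP 1, and 6.99 in DN 1. B cell genes were at no more than 3.43 in positive libraries, against 6.68 in DN 1 and 5.19 in YFP 1. The foamy macrophage list was between 8.44 and 10.16 in positive libraries, against 12.29 in YFP 5 and 5.56 in DN 1, the extremes of the negative ones. In the fit, all 11 B cell genes and all 15 T cell genes were below 0, with medians of -2.53 and -0.55, and 12 of 13 neutrophil and 12 of 12 smooth muscle genes above 0, with medians of 0.61 and 0.90. Fibroblast genes were below 0 in 11 of 12 and NK and innate lymphoid genes in 10 of 14, with medians of -0.84 and -0.94. The T cell, neutrophil, fibroblast, endothelial and erythroid and platelet medians had opposite signs on the sides of the YFP split. The endothelial median was 0.38 in GFP against DN and -0.60 in DP against YFP, and the erythroid and platelet median 0.02 and -1.64. T cell genes were above 0 in 0 of 15 in GFP against DN (median -2.90) and in 14 of 15 in DP against YFP (1.57), and neutrophil genes in 2 of 13 (-1.62) and 12 of 13 (4.85). Fibroblast genes were above 0 in 0 of 12 in GFP against DN (-2.08) and in 9 of 12 in DP against YFP (0.35), and NK and innate lymphoid genes in 0 of 14 (-1.26) and 7 of 14 (-0.19). B cell genes were above 0 in 0 of 11 in GFP against DN (-5.32) and in 3 of 11 in DP against YFP (-0.66). The part of these cells in the differences of other genes was not tested. Ddx3y, a Y-linked gene, was at 0.151, 2.99 and 0.367 CPM in GFP 6, YFP 6 and DN 6, and at 15.4 to 126 CPM in the other 15 libraries.

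**Figure D5:**
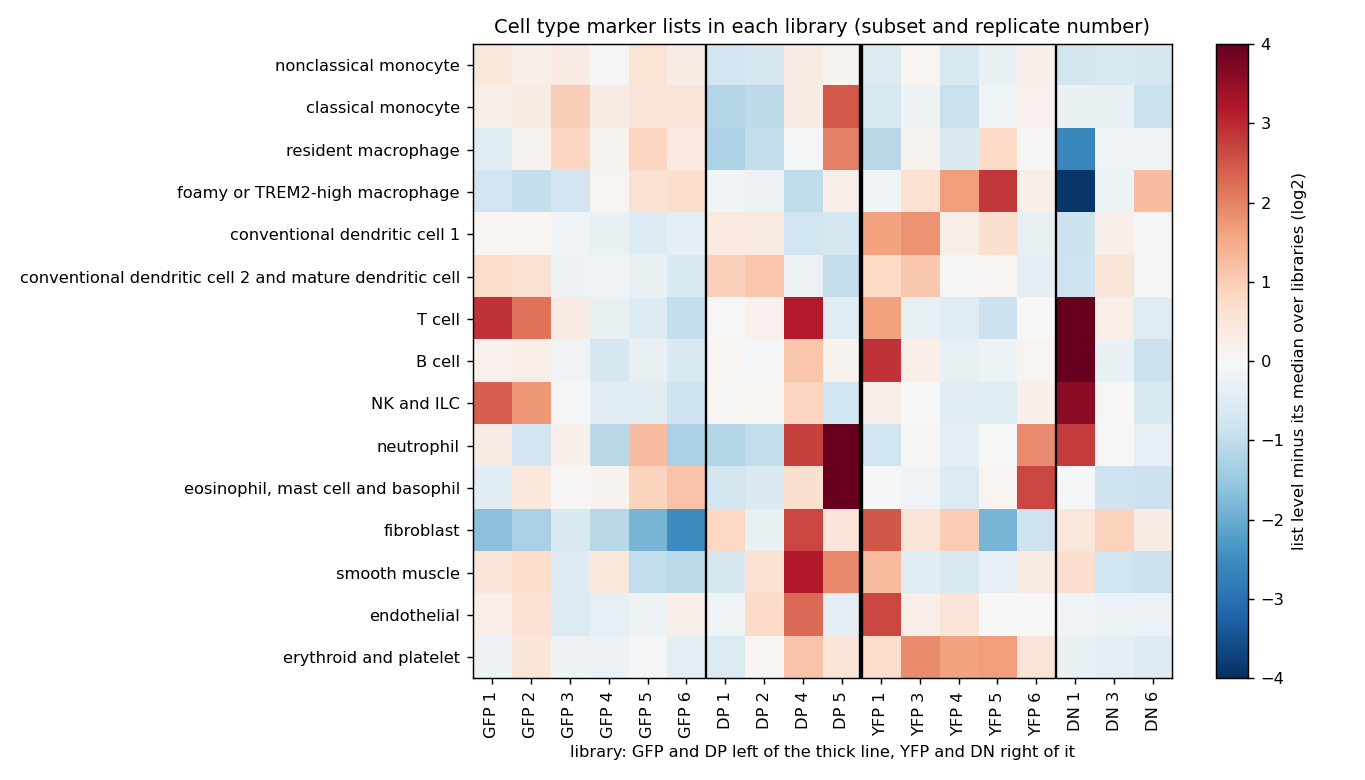
Level of each cell type list (mean log2(CPM + 1) of its members, minus the list's median over the 18 libraries; colour scale ends at -4 and 4) in each library, positive libraries left of the thick line and negative ones right of it. DP 5 stands out in neutrophil and mast cell genes, DN 1 in T, B and NK genes, and YFP 5 in foamy macrophage genes.

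The replicate numbers divide the libraries in a way that changes the result. The labels do not say what a number stands for. The 6 libraries numbered 1 and 2 were GFP 1, GFP 2, DP 1 and DP 2 against YFP 1 and DN 1, and in them Cx3cr1 was at 80.9 to 118 CPM in positive and 0.930 and 4.09 CPM in negative libraries. Within these 6, edgeR called 1443 of 18359 genes (7.86%), 478 higher (2.6%) and 965 lower (5.26%) in positive libraries. Leaving out YFP 1 gave 2217 calls and turned the balance round, with 1440 higher and 777 lower; leaving out DN 1 gave 1360, with 505 higher and 855 lower. Each of these 2 fits rests on a single negative library, assumed to vary like the others. Within the 12 libraries numbered 3 to 6 no gene was called, with 512 at an unadjusted p under 0.05. Of 1408 genes called in numbers 1 and 2 and tested in both sets, 387 (27.5%) had the same direction in numbers 3 to 6, against 5778 of 14073 (41.1%) among all genes tested in both.

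In numbers 1 and 2, some macrophage genes and most inflammatory genes listed rose in positive libraries. Cx3cr1 rose by 5.30 ± 0.60 (SE) on the log2 scale, with an adjusted p of 0.000388, and 8 of 14 genes of the Cx3cr1-linked macrophage list rose and none fell. They included Csf1r, the receptor for the macrophage growth factor M-CSF (3.20), and Fcrls (3.16). In numbers 3 to 6 Csf1r was at -0.44 and Fcrls at -0.83, not called, and Cx3cr1 at -1.73. Of 20 inflammatory cytokine and inflammasome genes, 11 rose and 1 fell; the chemokine genes Ccl4 and Cxcl10 rose by 2.81 and 2.91 on the log2 scale, and Il6 fell by 3.36. Of 16 foamy or TREM2-high macrophage genes none was called, and 4 of 20 lysosome genes rose. In the resident macrophage list 5 of 18 rose and none fell, among them Stab1 (2.85) and the complement genes C1qa (2.44), C1qb (2.52) and C1qc (2.36).

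Many lymphocyte and fibroblast genes fell in the same 6 libraries: 13 of 15 T cell genes, 9 of 11 B cell genes, 5 of 14 NK and innate lymphoid genes and 11 of 12 fibroblast genes, with none of these lists holding a gene that rose. None of 12 smooth muscle genes was called, and of 12 endothelial genes 1 rose and 1 fell. Il23a, Cd226 and Itgae fell too, with log2 fold changes of -2.96 for Itgae and -4.59 for Cd226 (adjusted p = 8.05e-05 and 2.50e-05), and Emr4 rose by 2.29 (adjusted p = 0.00183). The level of the T cell list in these libraries was 1.68 to 4.57 in positive ones, against 3.28 in YFP 1 and 6.99 in DN 1, and that of the B cell list 2.23 to 2.57 against 5.19 and 6.68. The Cx3cr1-linked list was at 6.54 to 6.81 in positive libraries, against 5.00 in YFP 1 and 3.81 in DN 1. The part of lymphocytes in the negative libraries in these calls was not tested. Emr4, Itgae and Cd226 had the same direction in numbers 3 to 6, at 2.44, -2.58 and -1.43, not called; Tpsab1 was at 0.71 in numbers 1 and 2 and at 7.08 in numbers 3 to 6.

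Without DP 4, DP 5, DN 3 and DN 6, which were picked by their Cx3cr1 and Itgax levels, the log2 fold change of Cx3cr1 was 2.23, a value that the choice of libraries helped to set. No gene was called in that fit, and 831 had an unadjusted p under 0.05. The genes whose levels over the 18 libraries were most like that of Cx3cr1, among 8686 genes with a mean of at least 10 CPM, were Kcnk13 (Pearson's r of log2(CPM + 1) = 0.902), Cd83 (0.897), Arhgap22 (0.890), Nfkbiz (0.886), Rcan1 (0.880), A630033H20Rik (0.879), Prr5l (0.877) and Tlr2 (0.875). These are descriptions over libraries that differ in depth and cell content.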

How the data were processed

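RNA from sorted cells was amplified with SMART-Seq v4, made into Nextera XT libraries and sequenced on a HiSeq4000, per the labels' protocols. TopHat 1.4.1, SAMtools, HTSeq 0.7.1 and mm10 are named in the submitters' processing notes; annotation, strand setting and treatment of reads with several matches are not given in the sources used here. The deposited values are whole-number counts per gene and library, not normalized by the authors. Totals per library are in the text; their number limits the precision of low genes.

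Libraries were grouped by label. edgeR 4.0.16 (R 4.3.3) fitted the counts with TMM factors, a filter on low counts by subset and robust quasi-likelihood, with terms for the Cx3cr1 and the YFP reporter; a fit with 1 mean per subset gave GFP against DN, DP against YFP and their interaction. Genes were called at a Benjamini-Hochberg adjusted p under 0.05 over all genes tested. Genes named were Cx3cr1, Itgax and Apoe, 12 per direction with a mean of at least 10 CPM and the same sign on both sides, filled by smallest unadjusted p, up to 3 per list, and those holding on both sides. The members and lists were chosen with earlier results of these data known. Genes named for the fits within replicate numbers, and Fos, were members of these lists. Alternatives used DESeq2 1.42.0, limma 3.58.1 voom, other scalings and filters, a replicate block, subsets of replicate numbers and libraries left out. The code was tested on simulated data. Gene positions came from GENCODE vM21, which uses the same build. No column of the table was unused (0).

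Deviations from subset means were correlated between libraries of different subsets. For same-numbered libraries the correlations were 0.57 to 0.673 for GFP and DN (3 pairs) and 0.164 to 0.342 for DP and YFP (3 pairs). For GFP and DP (4 pairs) they were 0.164 to 0.416. Differently numbered libraries gave -0.655 to 0.618, -0.313 to 0.386 and -0.392 to 0.334 in the same order. These ranges overlap, so they do not settle whether the numbers pair the libraries, and pairing was used as an alternative fit. Same-numbered values were -0.019 to 0.514 for GFP and YFP and -0.0932 to 0.487 for YFP and DN. For DP and DN, with 1 pair, the correlation was -0.221. The libraries numbered 6 (GFP 6, YFP 6 and DN 6) shared low Ddx3y, at 0.151, 2.99 and 0.367 CPM, a level that no other library had. Whether same-numbered libraries came from the same mice was not tested.

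Some members of the lists are not reported here.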

Additional observations from a re-analysis of the deposited data

Results flagged for a closer look

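For the genes named, 183 combinations of gene and sorted subset with 4 to 6 libraries were screened for 1 library that stood apart from the others on the log2(CPM + 1) scale by Dixon's test. It marked 26; chance marks about 1 in 20 groups, or 9.2 here. Of the 26, 8 were DP 5, 6 YFP 6, 3 DP 4 and 3 YFP 1.

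In DP, DP 5 stood high in Cma1 (3536 CPM), Cpa3 (2432), Tpsb2 (2634), Tpsab1 (136), Gm9733 (96.9) and Xaf1 (272), and low in Itgae (0.853) and Snn (0). DP 4 stood high in Elane (156 CPM) and Mpo (425) and low in Mmp12 (168), and DP 1 high in Ptprc (833 CPM).

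In YFP, YFP 6 stood high in Cma1 (119 CPM), Cpa3 (74.6), Tpsb2 (68.7), Ly6i (8.96) and Prtn3 (2.99) and low in Cd226 (0). YFP 6 had 289166 counts in all, so its values for Ly6i, Prtn3 and Cd226 rest on few or no reads. YFP 1 stood high in 2010001M09Rik (198 CPM) and Blk (53.2) and low in Chi3l3 (8.72), and YFP 5 high in Apoe (208 CPM) and low in Il23a (0.997). In GFP, GFP 6 stood high in Cd5l (95.2 CPM) and low in Dpt (0.151), and GFP 4 low in Siglech (3.19). DN has 3 libraries and was not screened. Why these libraries stand apart was not tested.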

How the results depend on the processing

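No alternative over all 18 libraries called a gene for the Cx3cr1 reporter, and none of the 18 fits that left out 1 library did. Of 60 genes named, 31 kept their direction in every fit of the main effect, 13 higher and 18 lower. Their choice by direction partly fixes this stability. The main limits are 4 libraries that go against their labels, 1 shallow library that also does, and only 3 DN libraries. Unlike results by replicate number and low counts in genes such as Tpsab1 and 2010001M09Rik are further limits. The cause of the changes below was not tested.

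With the replicate number as a block, 0 genes were called and 15 held on both sides; pairing changed no call of the main comparison, and the erythroid and platelet median was -1.55. At an adjusted p on each side 0 genes held. DESeq2 called 133 genes in DP against YFP and 12 in the interaction. limma voom called 3 in GFP against DN and 1 in the interaction, and 12 genes held on both sides; its log2 fold changes were 0.34 for Apoe, 1.19 for Cr2, 0.30 for Cxcr5 and -0.14 for Lyve1, and its list medians -0.54 for B cell, 0.28 for NK, -1.24 for neutrophil and -1.57 for erythroid and platelet genes. With the set of numbers as a covariate the B cell median was -0.96. Without the YFP covariate the medians were 2.57 for neutrophil, 5.19 for mast cell and -2.10 for erythroid and platelet genes.

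Within numbers 1 and 2, edgeR called 1443 genes, 2217 without YFP 1 and 1360 without DN 1, with 2296 in GFP against DN, 1496 in DP against YFP and 680 in the interaction, and 1461 held on both sides; DN 1 and YFP 1 are the only libraries of their subsets there, so each side sets 2 libraries against a single one that is assumed to vary like the others. Log2 fold changes there were -0.96 for Acta2, 0.72 for Apoe, 0.25 for Atp6v0d2, -0.033 for Hp, 2.18 for Itgax, 1.08 for Lpl, -1.07 for Lyve1, 1.15 for Mmp12, -0.32 for Mpo, -0.86 for Myl9, -1.53 for Plac8, -0.64 for Tagln, -0.37 for Timd4 and -0.024 for Xaf1. List medians were 1.12 (fractalkine axis), 0.023 (classical monocyte), 2.03 (Cx3cr1-linked), 1.12 (foamy macrophage), 0.97 (lipid uptake), 0.94 (lysosome), 0.75 (MHC class II), 1.51 (inflammatory), 0.65 (alternative activation), -1.54 (chemokine receptor), -2.77 (T cell), -4.49 (B cell), -1.86 (neutrophil), -0.88 (mast cell), -2.30 (fibroblast), -0.81 (smooth muscle), -1.78 (endothelial) and -0.27 (erythroid and platelet). Within numbers 3 to 6, DP against YFP gave 9 calls and 12 genes held on both sides. Log2 fold changes were 0.25 for 2010001M09Rik, 0.49 for Blk, 1.96 for Cd79a, -1.73 for Cx3cr1 and 0.87 for Cxcr5, and medians -0.79 (fractalkine axis), -1.24 (conventional dendritic cell 1), 0.15 (chemokine receptor), 1.74 (T cell), 0.95 (B cell), 2.83 (neutrophil), 0.96 (endothelial) and -1.46 (erythroid and platelet).

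The next fits were chosen after seeing the data. Without DP 4, DP 5, DN 3 and DN 6, and then also without YFP 6, 37 genes held on both sides each time, and 0 genes and 1 gene were called. Log2 fold changes in these fits were -0.87 and -0.73 for Acta2, -2.11 and -1.92 for Cbr2, -3.45 and -3.33 for Ccl24, -0.35 and -0.28 for Ceacam1, -2.14 and -1.82 for Chi3l3, -4.71 and -1.25 for Cpa3, -0.70 and -0.49 for Hp, 0.66 and 0.60 for Itgax, -1.69 and -1.59 for Lyve1, -1.04 and -0.77 for Myl9, -1.77 and -1.38 for Plac8, -0.68 and -0.47 for Siglech, -0.23 and -0.047 for Tagln, and -0.33 and -0.16 for Xaf1. In the first of them Cma1 was at -3.36, Cyp2ab1 at -0.035, Mpo at -0.59, Timd4 at -0.16 and Tpsb2 at -3.01. List medians were -0.37 and -0.32 (nonclassical monocyte), -0.79 and -0.75 (classical monocyte), -1.14 and -0.97 (respiratory chain), -2.50 and -2.37 (T cell), -4.10 and -3.93 (B cell), -2.57 and -2.27 (neutrophil), -3.18 and -0.93 (mast cell), -0.65 and -0.55 (smooth muscle), -0.99 and -0.97 (endothelial), and -1.98 and -2.02 (erythroid and platelet).

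Leaving out 1 library at a time gave 3 to 12 genes that held on both sides and log2 fold changes of -1.23 to 0.23 for Apoe, -0.0013 to 0.63 for Cx3cr1, -2.76 to 0.070 for Cxcr5 and -0.095 to 1.46 for Xaf1. List medians ran from -3.31 to -0.13 (B cell), -1.22 to 0.61 (NK), -1.59 to 1.94 (T cell), -0.99 to 0.051 (chemokine receptor), -0.056 to 1.17 (classical monocyte), -0.50 to 0.99 (endothelial), 0.19 to 3.93 (mast cell) and 0.011 to 0.56 (nonclassical monocyte).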
